A study of Mus musculus with 6 samples.

Results

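Cytochrome P450 enzymes of families 2 to 4 were described in the small intestine of mice given cold or room-temperature water. The set holds the genes whose symbol is Cyp2, Cyp3 or Cyp4 followed by a subfamily letter and a number, with at least 1 transcript annotated as protein-coding. It came to 72 of 55267 genes, 48 of family 2, 7 of family 3 and 17 of family 4, and all transcripts of a gene were summed. The choice used symbols and annotation alone and no measured value.

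These enzymes sit in the membrane of the endoplasmic reticulum, hold a heme iron and insert an oxygen atom into drugs, plant compounds, steroids and fatty acids, using electrons passed on by P450 reductase. Families 2 and 3 are known for clearing foreign compounds, and several of their genes are switched on by the nuclear receptors PXR and CAR. Family 4 mainly hydroxylates fatty acids, leukotrienes and related lipids at the end of the chain, and parts of family 2 turn arachidonic acid into epoxides. In the gut, absorptive cells of the villus carry the enzymes that meet swallowed compounds first.

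Mice were gavaged daily for 14 days with 1 ml of water. The 3 cold water libraries stem from mice dosed at 8 am with water of 0 to 4 °C, and the 3 control libraries from mice dosed at 9 am with water of 20 to 25 °C. Temperature and hour of dosing therefore differed together and cannot be told apart. All animals were kept at 22 °C, and the labels give no strain, sex or age. The labels do not say that each library is a separate animal, so the p-values below measure the spread between these libraries, which may be technical. Total RNA depleted of ribosomal RNA was sequenced from both ends. The libraries held 72690433 to 78668871 estimated counts, worth about 19306900 to 20894800 fragments.

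The labels name proximal jejunum as the tissue, whereas the design text names colon. All 14 markers of small intestinal absorptive cells reached 1 FPKM (fragment density per transcript length and library size), with summed levels of 33931 to 52855 FPKM under cold water and 31512 to 43869 FPKM in control. The 3 markers of the ileum summed to 0.114 to 0.751 FPKM, with the enterocyte hormone Fgf15 at 0 in all 6 libraries. The 5 colon markers summed to 26.6 to 39.8 FPKM, nearly all of it from the chloride exchanger Slc26a3, which small intestine also carries. Of 10 hepatocyte markers, the fibrinogen genes Fga and Fgb, Serpina3k and Cyp7a1 were at 0 in every library and albumin (Alb) had a mean of 0.370 FPKM. The summed hepatocyte list, 78.9 to 141 FPKM under cold water and 85.1 to 108 FPKM in control, came mostly from Cps1, which small intestine also expresses. The 9 markers of pancreatic acinar cells, 0 of which reached 1 FPKM, summed to 0.947 to 1.23 FPKM under cold water and 2.47 to 6.43 FPKM in control. The 4 duodenum markers, led by Gata4, summed to 40.7 to 43.0 FPKM under cold water and 50.3 to 53.2 FPKM in control. Both sums were without overlap between the groups, as were 9.44% of all single genes with a mean of at least 1 FPKM. Where along the gut each sample was cut was not tested.

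What the enzymes have in common can be seen in the stretch that binds the heme. It codes for 10 amino acids that open with phenylalanine, and its cysteine holds the heme iron. The stretches below were read from the mouse GENCODE M21 transcripts (GRCm38) and cover the leading member of each of the 7 subfamilies with the highest summed level, with some close relatives. Bases are written 5′ to 3′ on the transcript strand, and capitals mark the codon of the cysteine.
Cyp3a11: tttgggaatggacccaggaacTGCcttggc
Cyp3a13: tttgggagtggaccaaggaacTGCattggc
Cyp3a25: tttggaaatggacccaggaacTGCataggc
Cyp2b10: ttctcaacaggaaagcgcattTGTcttggt
Cyp2c65: ttctcaacaggaaaacggattTGTgtggga
Cyp2c68: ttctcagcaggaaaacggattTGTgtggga
Cyp2d26: ttctcagcaggccgcagatcaTGCctgggg
Cyp2j6: ttctcaatgggaaagcgagctTGCctggga
Cyp4f14: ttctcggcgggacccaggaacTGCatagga
Cyp4v3: ttttctgctggacctcgaaacTGTattggt

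The signature was found in 70 of the 72 members and took 56 different forms, with Cyp2s1 and Cyp3a59 the exceptions in the coding sequence read. Among the stretches shown, those of the same subfamily were close. Cyp3a11 shared 27 of 30 bases with Cyp3a13 and 27 with Cyp3a25, and Cyp2c65 shared 29 with Cyp2c68. This does not hold for all members: the stretch of Cyp2c23, not shown, differs from that of Cyp2c65 at more bases than that of Cyp2b10 does. Between subfamilies the stretches shown differed more, also inside a family. Cyp2b10 shared 25 bases with Cyp2c65 and 17 with Cyp2d26, and Cyp4f14 shared 21 with Cyp4v3. Across families there were 21 shared bases for Cyp3a11 and Cyp4f14 and 15 for Cyp3a11 and Cyp2b10. Outside this stretch some members resemble each other closely enough for short reads to be shared, which is taken up beside the genes concerned.

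In these libraries 28 of the 72 members had a mean level of at least 1 FPKM and 44 did not. That is 38.9% of the set, beside 51.5% of the 21776 genes with a protein-coding transcript. The 28 comprised 16 of the 48 genes of family 2, 4 of the 7 of family 3 and 8 of the 17 of family 4. In all, 20 members had a mean of at least 10 FPKM and 8 of these at least 100 FPKM. The 72 genes together made up 0.408 to 0.644% of all FPKM of a library. The 8 highest members supplied 79.4 to 83.8% of the sum over the set in every library, so few genes carried most of the level.

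By subfamily, Cyp3a supplied on average 38.7% of the summed level over the 6 libraries (range 35.4 to 47.0%) and Cyp4f 17.5% (14.3 to 19.7%). Cyp2c supplied 11.3% (10.02 to 12.49%), Cyp2b 10.8% (9.14 to 12.1%), Cyp2d 8.69% (7.24 to 9.88%) and Cyp4v 6.77% (5.52 to 7.91%). The ranges of these last 4 overlapped from each to the next, and Cyp2b was above Cyp2c in 4 of the 6 libraries. Single genes overlapped as well. Of 27 pairs of neighbours in the order of mean level, 24 had ranges over the 6 libraries that overlapped. The 3 steps without overlap lay between Cyp2b10 and Cyp2d26, between Cyp2c65 and Cyp2c68, and between Cyp2u1 and Cyp2j9.

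**Figure D1:**
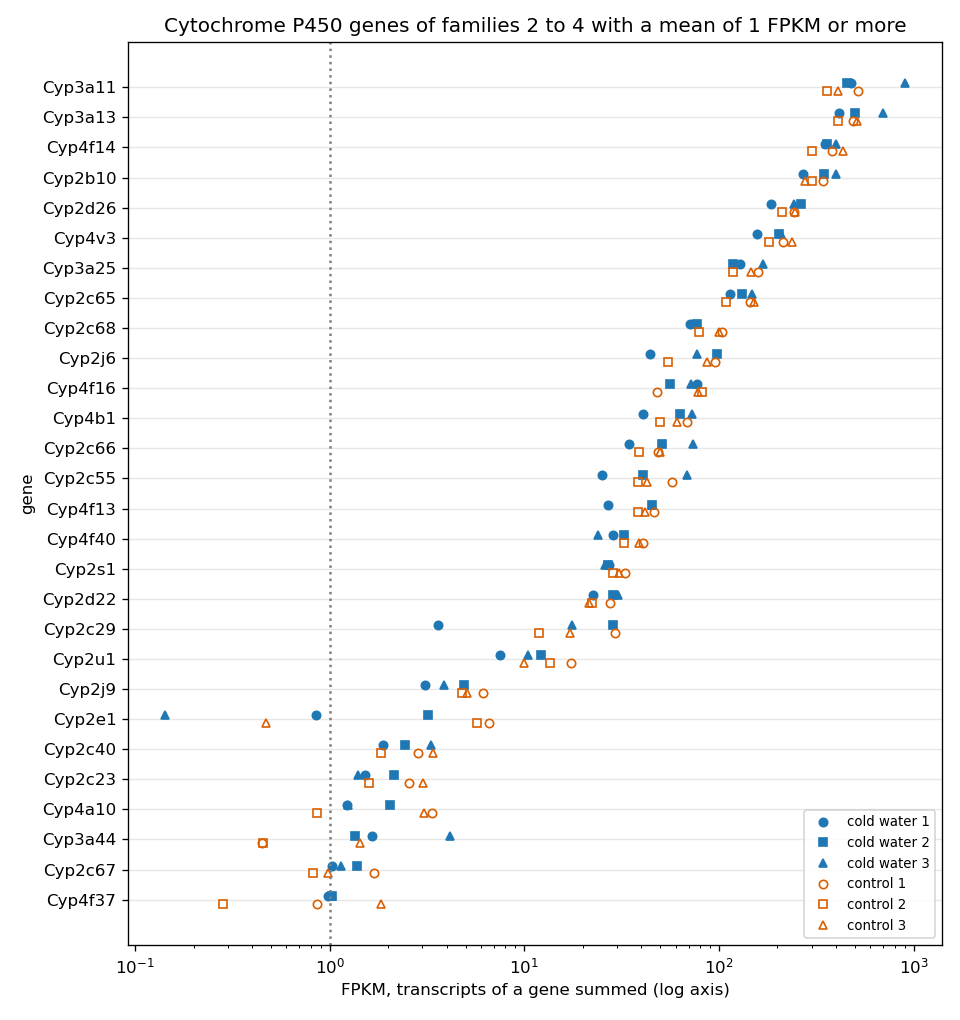
Level of the 28 members with a mean of at least 1 FPKM, ordered by mean, on a logarithmic FPKM axis, with 1 point per library in the colour of its group. Points of both groups lie among each other at nearly every gene, and the libraries spread most widely for Cyp2e1, Cyp3a44 and Cyp2c29.

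Cold water and control were compared by edgeR's quasi-likelihood test on the summed estimated counts, fitted over all 12939 genes with a mean of at least 1 FPKM, with Benjamini-Hochberg adjustment at a threshold of 0.05. No member passed the threshold: 0 of the 28 tested were called, beside 0.0386% of all genes (5 genes). The other tools also called 0 of the 28, DESeq2 beside 0.549% of all genes and limma on log2(FPKM + 1) beside 0.0232%. Adjusted p ran from 0.878 to 0.998 over the 28. At an unadjusted p under 0.05 the count was also 0, where 5.01% of all genes fell. DESeq2 put 2 members at that unadjusted level, beside 6.62% of all genes, and limma put 1, beside 4.4%. In counts relative to the scaled library total (CPM) the libraries of the groups were separate for 0 members, beside 10.5% of all genes (5.3% higher and 5.22% lower under cold water). Log2 differences, always cold water minus control, lay above 0 for 11 members and below 0 for 17 (45.8% of all genes were below 0), with a median of -0.02 beside 0.03 for all genes.

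A missed threshold does not show equal levels, so the intervals matter here. For 16 of the 28 members the 95% interval of the difference stayed within 2-fold in either direction, as it did for 65.4% of all genes. Among the 20 members at 10 FPKM or more this held for 15, and their differences ran from -0.42 to 0.56. For the other 12 members a change of more than 2-fold lay inside the interval. The median coefficient of variation over the 6 libraries was 27.2% for the members and 20.5% for all tested genes. Between 1 and 10 FPKM it was 46.2% against 24.6%, and from 10 FPKM up it was 21.5% against 16.7%.

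**Figure D2:**
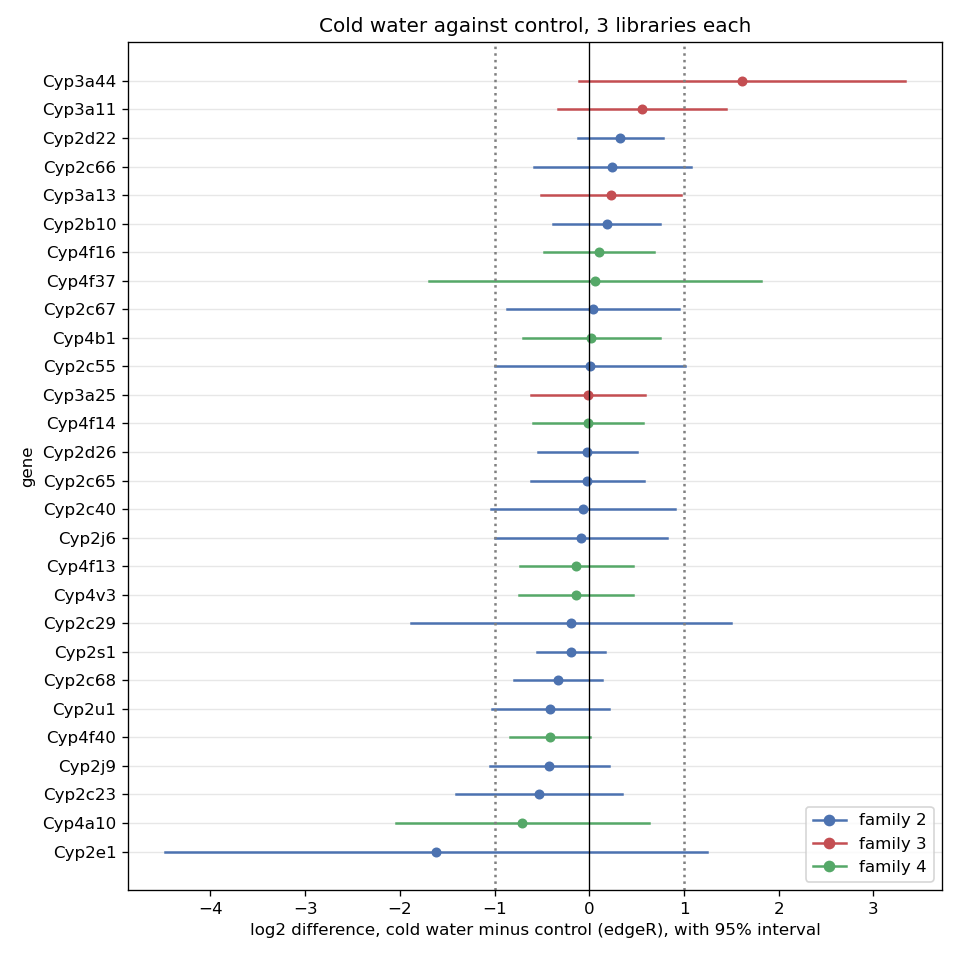
Log2 difference of cold water minus control for the 28 tested members, by edgeR, with bars for the 95% interval. The bars of all 28 cross 0 and those of Cyp2e1, Cyp3a44, Cyp2c29 and Cyp4f37 are the widest.

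The summed level of the set was 3092 ± 638 FPKM under cold water and 2885 ± 337 FPKM in control (SD, n = 3 each), a gap smaller than either spread. Values are given from here on in the order of libraries 1, 2 and 3 of each group. The sums were 2526, 2966 and 3784 FPKM under cold water and 3138, 2503 and 3014 FPKM in control, so that the lowest and second lowest sums came from different groups and the highest from cold water 3. The summed absorptive cell markers read 33931, 46569 and 52855 FPKM under cold water and 40812, 31512 and 43869 FPKM in control. Their lowest, second lowest and highest libraries were the same, but Apoa4 weighed heavily in that sum. Apoa4 read 8319, 12700 and 20602 FPKM under cold water and 8174, 5747 and 10367 FPKM in control. Single markers differed in order: Alpi was also highest in cold water 3 at 911 FPKM, while Sis was lowest there at 443 FPKM. Fabp1 was second lowest there at 6183 FPKM. The 10 markers of crypt and proliferating cells read 464, 257 and 233 FPKM under cold water and 258, 342 and 209 FPKM in control, and stood highest in the 2 libraries where the P450 sum was lowest. The 6 villus tip markers, led by Apoa4, which the absorptive list also holds, summed to 9082, 13734 and 22658 FPKM under cold water and 8394, 6090 and 11101 FPKM in control. That sum was highest in cold water 3 and overlapped between the groups, and 0 of the 6 genes were called. Ada alone read 651, 841 and 1681 FPKM under cold water and 158, 272 and 600 FPKM in control. Nt5e read 10.4, 27.0 and 34.3 FPKM under cold water and 2.93, 6.36 and 8.02 FPKM in control. Both were without overlap in FPKM, as were 9.44% of all genes in either direction, while Apoa4, Slc28a2, Egfr and Klf4 overlapped. As a share of the absorptive marker sum, the P450 genes took 6.37 to 7.94% in all 6 libraries. The 6 smooth muscle markers varied widely, at 839, 1350 and 338 FPKM under cold water and 689, 1646 and 169 FPKM in control. They were highest in control 2, where the P450 sum was lowest, and next in cold water 2, where it was not. The part of cell makeup in the P450 levels was not tested, and in tissue RNA fewer cells of a type and less RNA per cell cannot be told apart. In CPM, cold water 1 was the lowest library for 15 of the 28 members and control 2 for 11.

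The Cyp3a enzymes are the broad drug- and steroid-oxidising P450s of gut and liver, and their genes are classic targets of PXR. Cyp3a11, the main Cyp3a of mouse liver and intestine, stood at 480, 458 and 904 FPKM under cold water and 521, 360 and 411 FPKM in control. Cold water 3 was far above the other 5 libraries, and the remaining cold water values lay within the control range. The difference was 0.56 on the log2 scale (SE 0.37, 95% interval -0.33 to 1.44, unadjusted p = 0.179 and adjusted p = 0.884 by edgeR). With cold water 3 left out it was 0.02, the lowest of the leave-one-out values. Cyp3a13, which is known from mouse intestine, had 414, 498 and 700 FPKM under cold water and 487, 408 and 510 FPKM in control. Here too cold water 3 was the highest and the rest overlapped, with a difference of 0.23 (SE 0.31, adjusted p = 0.947). Cyp3a25 gave 129, 118 and 168 FPKM against 159, 118 and 147 FPKM in control, overlapping, with a difference of -0.02 (SE 0.25).

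Cyp3a44, which in mouse liver is known as a female-predominant gene, was the lowest of the 4 Cyp3a genes at 1 FPKM or more and had the largest upward difference of all 28. It read 1.66, 1.35 and 4.14 FPKM under cold water and 0.447, 0.457 and 1.44 FPKM in control. Every cold water library was above control 1 and 2, and control 3 lay between cold water 2 and cold water 1. The difference of 1.61 (SE 0.72, 95% interval -0.11 to 3.33, unadjusted p = 0.063 and adjusted p = 0.878 by edgeR) did not pass, and it was 0.77 with cold water 3 left out. Over the alternatives run, its adjusted p ranged from 0.438 to 1. Cyp3a44 and the far higher Cyp3a11 are 94.9% identical in coding sequence. Of the 100-base windows of the Cyp3a44 transcript 5.37% also occur in transcripts of other genes, with 5 windows in Cyp3a11. How reads of relatives that differ by few bases were counted is not given, so the Cyp3a44 level is uncertain. Across the family 3 members tested, 3 of 4 differences were above 0 and the median was 0.39.

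The neighbours Cyp3a11 and Cyp3a44 show how far the level of close relatives can differ. Cyp3a11 lies on mouse chromosome 5 at chr5:145854426-145879964 and Cyp3a44 at chr5:145773983-145805874, both on the minus strand (GRCm38, coordinates of the deposited table). Across the 6 libraries Cyp3a11 was 218 to 1164 times as high in FPKM, and 330 times in the means. These ratios are as uncertain as the Cyp3a44 level. Their promoters from RefSeq (GRCm38.p6), from 250 bases before to 50 bases after the transcript start and written 5′ to 3′ on the minus strand, are shown to let this pair be compared. They lie at chr5:145879805-145880104 and chr5:145805825-145806124. The starts are those of RefSeq. For Cyp3a44 the start coincides with that of the deposited gene, whereas the deposited Cyp3a11 gene begins further upstream, at 145879964. Relative to the deposited genes the windows are therefore not placed alike. Capitals mark matches on either strand to TATAAA, the letters of a TATA box, and to CAAAGNNCA, a motif of the hepatocyte nuclear factor HNF4. Matches are by letters alone at any position in the window, so a marked TATAAA need not be a TATA box.
Cyp3a11 promoter: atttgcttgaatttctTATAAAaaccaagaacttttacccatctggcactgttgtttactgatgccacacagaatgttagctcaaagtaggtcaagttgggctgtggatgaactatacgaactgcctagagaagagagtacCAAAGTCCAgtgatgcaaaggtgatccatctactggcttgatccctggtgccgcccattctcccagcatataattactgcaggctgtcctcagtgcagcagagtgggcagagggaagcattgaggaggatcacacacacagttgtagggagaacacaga
Cyp3a44 promoter: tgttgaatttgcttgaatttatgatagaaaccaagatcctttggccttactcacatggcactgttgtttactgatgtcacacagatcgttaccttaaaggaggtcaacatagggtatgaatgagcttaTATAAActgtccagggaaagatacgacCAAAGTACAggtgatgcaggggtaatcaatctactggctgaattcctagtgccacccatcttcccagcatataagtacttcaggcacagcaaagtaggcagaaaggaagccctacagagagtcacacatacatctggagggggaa

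Over the aligned bases the pair was 79.2% identical. Both windows hold TATAAA and CAAAGNNCA, as well as the nuclear receptor half-site AGGTCA. RefSeq promoters were matched for 59 members, 66 promoters in all. A gene counts below if any of its promoters holds the motif, whereas the shares of all promoters count single promoters. By single promoter, 7 of the 23 at 10 FPKM or more held CAAAGNNCA, 6 held TATAAA and 4 held AGGTCA. CAAAGNNCA occurred in 6 of the 18 genes matched at 10 FPKM or more and in 13 of the 35 below 1 FPKM, beside 6.36% of all 32851 promoters. TATAAA was found in 6 of 18 and 15 of 35, beside 13.6%, and AGGTCA in 3 of 18 and 15 of 35, beside 16.3%. A CAAAGNNCA match can contain AGGTCA, and both strands were searched for each motif. The GATA motif AGATAA occurred in 3 of 18 and 7 of 35 (11.2% of all promoters), and the CDX motif TTTATNG in 3 of 18 and 5 of 35 (10.9%). Several members below 1 FPKM are near copies of each other, so these genes are not independent.

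Cyp2b10 oxidises barbiturates and many other drugs and is the standard target gene of CAR. Its level was 270, 345 and 401 FPKM under cold water and 341, 302 and 275 FPKM in control, with cold water 1 lowest of all 6 and cold water 3 highest. The difference was 0.18 (SE 0.24, 95% interval -0.38 to 0.75, adjusted p = 0.946). Of the 5 Cyp2b genes it alone reached 1 FPKM. Its closest relative Cyp2b13, 88.7% identical in coding sequence, had a mean of 0.0856 FPKM, and no 100-base window of the Cyp2b10 transcript occurs in another gene.

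The Cyp2c enzymes convert drugs and make epoxides and hydroxy acids from arachidonic acid. Cyp2c65, known from mouse stomach and intestine, had 114, 132 and 149 FPKM under cold water and 145, 109 and 151 FPKM in control. Its near relative Cyp2c66 had 34.4, 51.1 and 73.5 FPKM under cold water and 48.9, 38.7 and 49.6 FPKM in control. Groups overlapped for both, with cold water 1 lowest or next to lowest, and the differences were -0.02 (SE 0.25) and 0.24 (SE 0.35). Cyp2c55, which makes a hydroxy acid from arachidonic acid, had 25.0, 40.6 and 68.6 FPKM under cold water and 57.7, 38.4 and 42.8 FPKM in control. Cold water held both its lowest and its highest library, and the difference was 0.01 (SE 0.42). Cyp2c65 and Cyp2c66 are 96.3% identical in coding sequence and share 143 windows of 100 bases, which is 7.82% and 9.34% of the windows of either transcript.

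Cyp2c68 came closest to a lower level among the Cyp2c genes. It had 71.1, 77.5 and 74.5 FPKM under cold water and 103, 79.1 and 99.6 FPKM in control. In these deposited FPKM all cold water libraries were below all controls, by a narrow gap to control 2, whereas in scaled CPM the groups overlapped. The difference was -0.33 (SE 0.20, 95% interval -0.80 to 0.14, unadjusted p = 0.138 and adjusted p = 0.878 by edgeR). In deposited FPKM 2 of the 28 tested members were without overlap, Cyp2c68 and the epithelial Cyp2s1, both lower under cold water. This stands beside 4.34% of all genes that were lower and 9.44% in either direction. Among members below 1 FPKM, which were not in that count, Cyp3a59 was higher without overlap and Cyp2t4 lower without overlap. Cyp2s1 had 27.3, 26.9 and 26.1 FPKM under cold water and 33.1, 28.5 and 30.8 FPKM in control, the narrowest spread of the 28, with a difference of -0.20 (SE 0.15, adjusted p = 0.899). Cyp2c68 shares 19.8% of its 100-base windows with other genes, mostly with Cyp2c40, to which it is 98.1% identical in coding sequence. Reads in those windows could be assigned to either, so both levels are uncertain.

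The remaining Cyp2c genes were lower. Cyp2c29, a liver enzyme that makes arachidonic acid epoxides, had 3.59 to 29.2 FPKM with its lowest value in cold water 1 and its highest in control 1, a ratio of 8.12. Cyp2c40, Cyp2c23 and Cyp2c67 had means of 2.62, 2.04 and 1.17 FPKM. For Cyp2c40 44.1% and for Cyp2c67 23.7% of windows occur in relatives, so their levels are uncertain as well. Cyp2c67 stood just inside the limit of 1 FPKM, with 1.02, 1.38 and 1.14 FPKM under cold water and 1.69, 0.822 and 0.981 FPKM in control.

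Of the Cyp2d genes, drug-oxidising relatives of human CYP2D6, Cyp2d26 and Cyp2d22 reached 1 FPKM. Cyp2d26 had 185, 264 and 243 FPKM under cold water and 243, 212 and 245 FPKM in control. Its groups overlapped, with the lowest and the highest library both from cold water, and the difference was -0.02 (SE 0.22, 95% interval -0.54 to 0.50). Cyp2d22 had 22.5, 28.6 and 30.4 FPKM under cold water and 27.6, 22.2 and 21.6 FPKM in control. Cold water 2 and 3 lay above all controls and cold water 1 among them. The difference was 0.33 (SE 0.19, 95% interval -0.12 to 0.78, unadjusted p = 0.128 and adjusted p = 0.878 by edgeR).

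Cyp2j enzymes make epoxides of arachidonic acid, and Cyp2j6 is known as an intestinal form in the mouse. It had 44.5, 97.7 and 77.5 FPKM under cold water and 95.1, 54.9 and 86.7 FPKM in control. Low and high libraries were present in both groups, and the difference of -0.09 had a wide interval (SE 0.38, -1 to 0.82). Cyp2j9 had 3.07, 4.91 and 3.88 FPKM under cold water and 6.15, 4.80 and 5.08 FPKM in control. All but cold water 2 were below the controls, with a difference of -0.42 (SE 0.26, 95% interval -1.05 to 0.21, unadjusted p = 0.155 and adjusted p = 0.880 by edgeR). The fatty acid hydroxylase Cyp2u1 had a mean of 11.8 FPKM and a difference of -0.41 (SE 0.26).

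Cyp2e1, the ethanol-oxidising P450, was the most variable of the 28 members at 1 FPKM or more. It read 0.850, 3.19 and 0.143 FPKM under cold water and 6.56, 5.74 and 0.470 FPKM in control, a ratio of 46.0 between the highest and the lowest library. High libraries were cold water 2 and control 1 and 2, and the difference of -1.62 had an interval of -4.48 to 1.25. The fat cell hormone Adipoq read 0, 7.05 and 0 FPKM under cold water and 15.6, 10.3 and 0 FPKM in control. The lipid droplet protein Plin1 read 0, 1.72 and 0 FPKM under cold water and 3.32, 2.63 and 0 FPKM in control. Both fat cell genes were thus at 0 in the same 3 libraries in which Cyp2e1 was below 1 FPKM. Of the 6 adipocyte markers 5 reached 1 FPKM, and their summed level, led by Cidec, which was highest in cold water 3, was 76.0 to 151 FPKM under cold water and 83.5 to 129 FPKM in control. The part of fat tissue in the Cyp2e1 level was not tested.

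**Figure D3:**
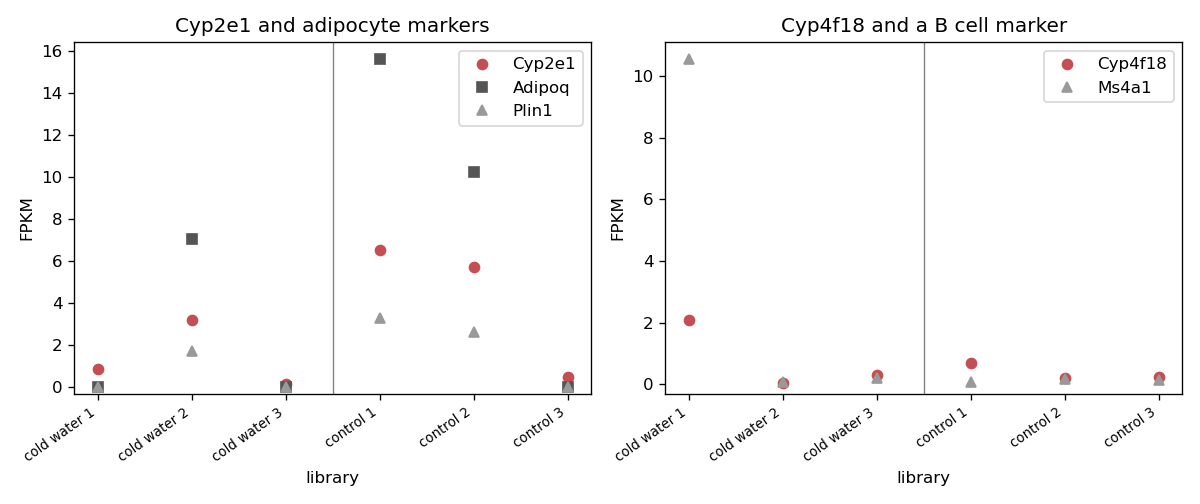
FPKM in each library of Cyp2e1 with the adipocyte markers Adipoq and Plin1 (left) and of Cyp4f18 with the B cell marker Ms4a1 (right). Cyp2e1 is high in the 3 libraries with Adipoq, and Cyp4f18 stands apart in cold water 1 at 2.09 FPKM, as does Ms4a1.

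Cyp4f enzymes inactivate leukotriene B and hydroxylate the end of the side chain of vitamin E. Cyp4f14, the main one here, had 351, 361 and 398 FPKM under cold water and 383, 302 and 433 FPKM in control. Control held its lowest and its highest library, and the difference was -0.02 (SE 0.24, 95% interval -0.60 to 0.56). Cyp4f16 had 77.1, 56.3 and 71.5 FPKM under cold water and 48.3, 81.9 and 77.7 FPKM in control. Control again held both ends, with a difference of 0.10 (SE 0.24). Cyp4f13 had 26.9, 45.1 and 45.5 FPKM under cold water and 46.3, 38.3 and 41.9 FPKM in control, with cold water 1 the one low library and a difference of -0.14 (SE 0.25).

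Cyp4f40 had the smallest unadjusted p of the 28. Its level was 28.6, 32.5 and 24 FPKM under cold water and 40.8, 32.5 and 38.7 FPKM in control. Cold water 1 and 3 lay below every control, while cold water 2 and control 2 met at the same rounded value. The difference was -0.42 (SE 0.18, 95% interval -0.83 to 0.00, unadjusted p = 0.052 and adjusted p = 0.878 by edgeR). Leaving out 1 library at a time gave -0.56 to -0.34, and over the alternatives run the adjusted p ranged from 0.750 to 1. In CPM without composition scaling its groups did not overlap, as for Cyp2c68 and Cyp2s1. These were 3 of the 28 tested members, beside 4.54% of all genes that were lower and 9.18% in either direction. No window of its leading transcript is shared with another gene.

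Cyp4f37 was the member nearest to the limit from above, at 0.978, 1.03 and 1.03 FPKM under cold water and 0.861, 0.282 and 1.83 FPKM in control. The controls spread widely on both sides of the cold water values. It is 95.9% identical to Cyp4f16 in coding sequence, which had 68.6 times its mean level, and 8.15% of its windows occur in other genes. Cyp4v3, the mouse counterpart of the human retinal disease gene CYP4V2, had 157, 204 and 209 FPKM under cold water and 214, 182 and 238 FPKM in control. Its groups overlapped, with a difference of -0.14 (SE 0.25, 95% interval -0.75 to 0.46). Cyp4b1, a hydroxylase of medium-length fatty acids, had 40.8, 63.2 and 72.9 FPKM under cold water and 68.3, 49.8 and 61.1 FPKM in control. Both ends of its range were cold water libraries, with a difference of 0.02 (SE 0.30). The PPAR alpha target Cyp4a10 had 0.860 to 3.37 FPKM with both ends in control and a difference of -0.71 (SE 0.56). Family 4 differences lay above 0 for 3 of 8 members, with a median of -0.08, and those of family 2 for 5 of 16, with a median of -0.08.

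The genes lie in groups of neighbours, and within most groups a single member supplied most of the level. With neighbours joined across gaps of up to 1000000 bases, 64 of the 72 members fell into 7 groups of 2 or more, and 8 stood alone. On chromosome 5 Cyp3a11 made up 78.6% of the summed mean FPKM of 6 members, while Cyp3a13 stood apart from them. On chromosome 7 Cyp2b10 made up 91.7% of a group of 13 in which 6 genes had a count of 0 throughout. Cyp2d26 made up 90.0% of 8 members on chromosome 15, Cyp4f14 72% of 8 on chromosome 17, and Cyp2j6 94.0% of 8 and Cyp4b1 96.6% of 7 in the groups on chromosome 4. The Cyp2c group of 14 on chromosome 19 was more even: 7 members reached 1 FPKM and the highest, Cyp2c65, held 39.8%.

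**Figure D4:**
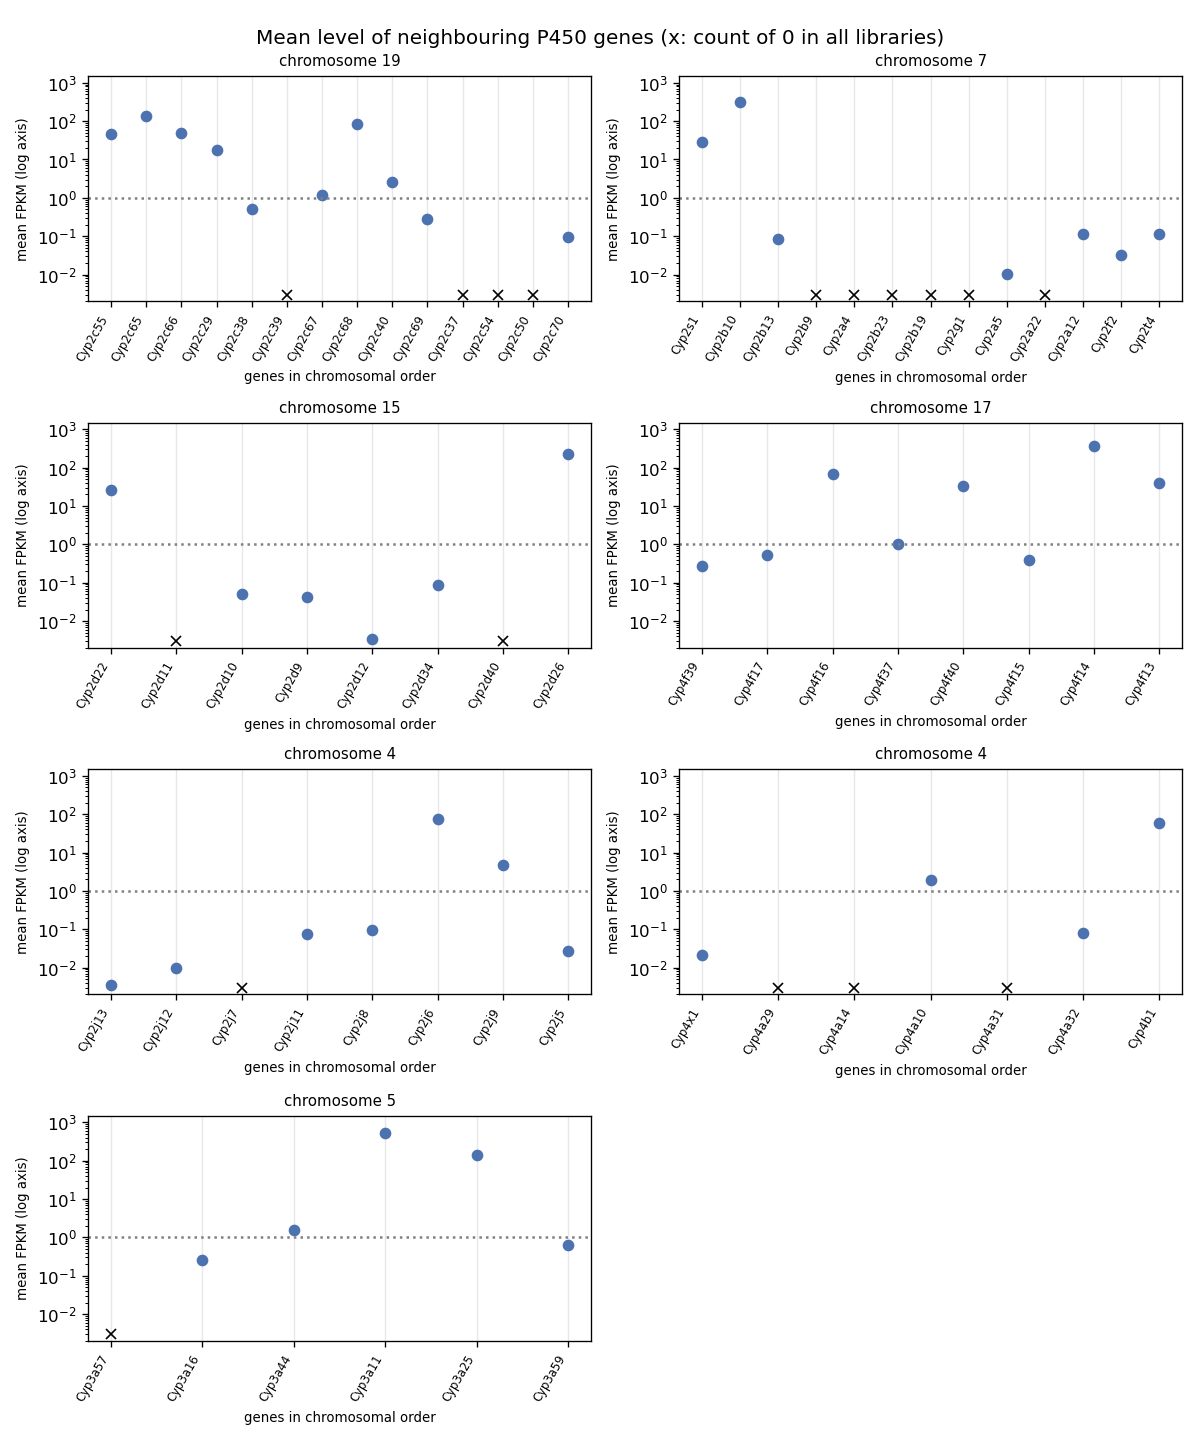
Mean FPKM over the 6 libraries, on a logarithmic axis, for the members of the 7 gene groups in chromosomal order, with crosses for genes with a count of 0 in all libraries and a dotted line at 1 FPKM. In each group a few genes lie far above neighbours that are near or at 0.

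The 44 members below 1 FPKM split into 27 with a count in at least 1 library and 17 with none. Those at 0 were Cyp2a4, Cyp2a22, Cyp2b9, Cyp2b19, Cyp2b23, Cyp2c37, Cyp2c39, Cyp2c50, Cyp2c54, Cyp2d11, Cyp2d40, Cyp2g1, Cyp2j7, Cyp3a57, Cyp4a14, Cyp4a29 and Cyp4a31. A count of 0 allows up to 3 fragments in a library, counting error only. Among these are genes known as abundant in mouse liver, such as Cyp2c37, Cyp2c50, Cyp2c54 and the PPAR alpha target Cyp4a14. The lung enzyme Cyp2f2 had a mean of 0.0319 FPKM and the vitamin D hydroxylase Cyp2r1 0.438 FPKM.

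Just outside the limit stood Cyp3a59, at 0.790, 1.37 and 0.638 FPKM under cold water and 0.543, 0.255 and 0.140 FPKM in control. All cold water libraries lay above all controls, and in the fit without a limit on level, which called 0 of 55 members and 0.0105% of all genes, its difference was 1.64 (SE 0.57, unadjusted p = 0.021 and adjusted p = 0.809 by edgeR), so it was not called. It is 97.5% identical in coding sequence to Cyp3a25, whose mean level was 140 FPKM, and 5.61% of its windows occur in that gene, so its level is uncertain. Cyp4f18, known from neutrophils and other white blood cells as a leukotriene hydroxylase, stood at 2.09, 0.0397 and 0.297 FPKM under cold water and 0.685, 0.202 and 0.254 FPKM in control. Cold water 1 was far above the others. That library also held the B cell gene Ms4a1 at 10.6 FPKM, against 0.0759 to 0.206 FPKM elsewhere. The 8 markers of B and plasma cells all reached 1 FPKM and summed to 4773 FPKM there, 1674 and 1884 FPKM in the other cold water libraries and 1232 to 1834 FPKM in control. Other white blood cell lists were highest in cold water 1 too. The 4 T cell markers, all at 1 FPKM or more, summed to 43.4 FPKM there, against 10.1 to 20.4 FPKM in the other 5 libraries. Of the 4 macrophage markers 3 reached 1 FPKM, and their sum was 38.1 FPKM there, against 12.4 to 20.0 FPKM in the others. The part of these cells in the Cyp4f18 level was not tested.

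No single transcript of a member passed the threshold, which again does not show equal levels. Of 53 transcripts of members with a mean of at least 1 FPKM, 0 were called, beside 0.0285% of all 21041 transcripts tested, and 1 had an unadjusted p under 0.05, beside 4.73%. DESeq2 called 0, with 7 at that unadjusted level, beside 10.9% of all transcripts. The 1 transcript was a minor protein-coding form of Cyp4f14, ENSMUST00000054174. It had 10.9, 21.9 and 6.55 FPKM under cold water and 5.65, 4.97 and 1.94 FPKM in control, without overlap, as for 11.1% of all transcripts. Its difference was 1.68 (SE 0.58, unadjusted p = 0.030 and adjusted p = 0.960 by edgeR), while the leading form of the gene, ENSMUST00000179434, carried 91.8 to 97.6% of the FPKM in every library. Next by p came the forms ENSMUST00000235086 of Cyp4f40, which leads that gene, at -0.50 (SE 0.20), and ENSMUST00000165061 of the same gene, at 1.78 (SE 0.73).

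Of the 28 members, 8 had a single transcript in the table. Among the other 20 the leading transcript was the same in all 6 libraries for 18 and protein-coding for all but Cyp4f16. In Cyp4f16 the highest mean belonged to ENSMUST00000168346, a retained-intron form with 20.9 to 36.8 FPKM and 31.4 to 45.0% of the gene. It led in 1 library, control 2, and in the other 5 the coding form ENSMUST00000003416 was higher. In Cyp2c66 the coding form ENSMUST00000087234 led in 5 libraries with 56.4 to 62.4%. In control 1 it had 46.0% and a form marked for nonsense-mediated decay, ENSMUST00000146494, was higher. Cyp2d26 kept its leading form but a form marked for nonsense-mediated decay, ENSMUST00000229387, was read at 26.5, 29.0 and 47.1 FPKM in cold water 2, cold water 3 and control 3 and at 0 in the others. Isoforms of a gene share most of their sequence, so their split is an estimate.

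Genes around the P450s were read from lists chosen with earlier results of these data known, and 0 of the genes tested in them were called. Of 12 genes of electron supply, heme synthesis and heme breakdown 11 were tested, with 4 differences above 0 and 7 below, a median of -0.03 and a lowest adjusted p of 0.878. P450 reductase (Por), which feeds electrons to all these enzymes, had 108, 91.8 and 172 FPKM under cold water and 55.3, 60.5 and 88.8 FPKM in control. The cold water libraries were the 3 highest in FPKM but overlapped with control in scaled CPM, and the difference was 0.84 (SE 0.35, 95% interval 0.01 to 1.66, unadjusted p = 0.047 and adjusted p = 0.878 by edgeR). Alas1, the first enzyme of heme synthesis, had 41.3, 49.1 and 73.0 FPKM under cold water and 32.1, 30.5 and 29.5 FPKM in control. Its groups did not overlap, and the difference was 0.74 (SE 0.26, unadjusted p = 0.027 and adjusted p = 0.878 by edgeR).

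Among 32 receptors and factors that regulate P450 genes 29 were tested, 20 above 0 and 9 below, with a median of 0.13. PXR (Nr1i2) had 43.8 ± 7.04 FPKM under cold water and 41.0 ± 2.08 FPKM in control (SD, n = 3 each), and CAR (Nr1i3) 28.3 ± 4.21 and 24.2 ± 2.07 FPKM, with differences of 0.12 (SE 0.21) and 0.09 (SE 0.19). For both receptors the groups overlapped. The smallest unadjusted p belonged to the dioxin receptor Ahr at 0.67 (SE 0.21), the clock factor Tef at 0.73 (SE 0.24) and the corepressor Nr0b2 at -1.66 (SE 0.56). Each of these was separate between groups in CPM, as were 6 of the 29, beside 10.5% of all genes, and their adjusted p was 0.878.

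Of 21 genes of other P450 families 4 were tested, and the dioxin-inducible Cyp1a1 stood out among them. It had 16.6, 89.2 and 18.1 FPKM under cold water and 2.35, 6.72 and 10.2 FPKM in control, with cold water 2 far above the rest and no overlap. Its difference was 2.66 (SE 0.85, 95% interval 0.65 to 4.67, unadjusted p = 0.017 and adjusted p = 0.878 by edgeR), and the next by p, Cyp20a1, was at 0.27 (SE 0.39). Of 20 targets of PPAR alpha 19 were tested, 6 above 0 and 13 below, with a median of -0.14. Acot1 differed by -1.29 (SE 0.49), Pdk4 by 0.73 (SE 0.28) and Acadm by -0.36 (SE 0.14). Of 23 transporters and conjugating enzymes that are induced along with Cyp3a or Cyp2b, 22 were tested, 12 above 0 and 10 below, with a median of 0.05. The drug efflux pumps Abcb1b and Abcb1a differed by 1.38 (SE 0.41) and 0.78 (SE 0.28), both without overlap, and Abcg2 by -0.40 (SE 0.17). The genes that release arachidonic acid or act on it and its epoxides, 11 of 18 tested, had 7 differences above 0 and 4 below, a median of 0.07 and a lowest adjusted p of 0.908. The smallest p in that list belonged to the phospholipase Pla2g4a at 0.43 (SE 0.37) and the epoxide hydrolase Ephx1 at 0.24 (SE 0.27).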

How the data were processed

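Per the file headers, the authors gave each transcript an FPKM value and an estimated count per library, with gene symbol, transcript type and coordinates. The submitters' processing notes name StringTie 1.3.4d, HISAT2 2.0.4, DESeq2, edgeR, FastQC 0.10.1 and cutadapt 1.9, without roles. Not given in the sources used here are the genome build, the strand setting and how reads shared by relatives were counted. Of 210 member transcripts 209 were found in GENCODE M21, all with identical GRCm38 coordinates. Of the deposited estimated counts, 98.91 to 99.06% lay within 1 count of FPKM times transcript length times a constant of the library, so they are coverage estimates. Low values step by 3.765 counts, taken as 1 fragment. Transcripts with a count of 0, listed at 0.0001 FPKM, were set to 0.

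Transcripts were summed by symbol. Features whose mean reached 1 FPKM were tested with edgeR 4.0.16 in R 4.3.3 on summed estimated counts with TMM factors (0.897 to 1.10), group as the sole term and adjustment over all features. DESeq2 1.42.0, limma 3.58.1 on log2(FPKM + 1) and log2(FPKM + 0.1), other scalings and filters, a replicate block and leaving out each library were the alternatives. The code was tested on simulated data. Intervals are 95%.

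Shared sequence is the share of 100-base windows of the leading protein-coding transcript that occur in transcripts of other genes. Members with values in every library are the 15 with the highest mean and the tested ones without overlap on a scale used. Added to these are the 3 higher and 3 lower with the smallest p, and 2 on either side of 1 FPKM. From related lists the 2 to 4 genes of smallest p are named. Cyp2e1, Cyp2s1, Cyp2c29, Nr1i2 and Nr1i3 were singled out after their values were seen. Some marker genes are not reported here by name. Members and lists were chosen with earlier results of these data known.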

Additional observations from a re-analysis of the deposited data

How the results depend on the processing

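There were 3 libraries per group, and the counts are coverage estimates. In each of the alternatives run, 0 members, 0 member transcripts and 0 related genes were called. The count over all genes, 5, was 3 with library totals alone, with no filter, with filterByExpr, with limma at either pseudocount and with counts divided by the worth of a fragment, 2 with protein-coding transcripts alone, 71 by DESeq2, and 0 to 1 when a library was left out. With replicate number as a block it was 0. Whether the numbers pair the libraries cannot be told from 3 libraries per group. Same-numbered deviations correlated at -0.00, 0.24 and 0.45, and 2 of 3 cold water libraries correlated best with their own number. Of the 28 tested members, 2 were without overlap in FPKM as deposited and 3 in CPM of library totals, scales added after seeing the data.

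For 21 named members, 335 values were computed and 46 changed sign, all of them with differences that passed no test, and 6 members kept their sign throughout. Cyp2c55 was -0.058 with library totals, -0.142 and -0.147 with limma at pseudocounts 1 and 0.1, -0.119 with the replicate block and -0.0013 with protein-coding transcripts. Cyp4b1 was -0.0193 with library totals, -0.047 and -0.0483 with limma and -0.0213 with the block. Cyp4f14 was 0.0017 with limma at either pseudocount and 0.0043 with the block. Leaving out 1 library at a time gave ranges across 0 for Cyp2b10 (-0.0721 to 0.38), Cyp2c55 (-0.57 to 0.33), Cyp2c65 (-0.24 to 0.14), Cyp2c66 (-0.20 to 0.52), Cyp2c67 (-0.20 to 0.39), Cyp2d26 (-0.15 to 0.15), Cyp2j6 (-0.34 to 0.20), Cyp3a13 (-0.14 to 0.44), Cyp3a25 (-0.31 to 0.10), Cyp4b1 (-0.28 to 0.27), Cyp4f13 (-0.36 to 0.0756), Cyp4f14 (-0.20 to 0.18), Cyp4f16 (-0.0799 to 0.31), Cyp4f37 (-0.44 to 1.00) and Cyp4v3 (-0.33 to 0.0331).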
